A study of Mus musculus with 12 samples.

Results

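The regions described here are stretches of the mouse genome at which the bromodomain protein BRD2 was called both in untreated RAW264.7 cells and in RAW264.7 cells given RANKL. They are the regions of the untreated BRD2 peak list that overlapped a region of the RANKL BRD2 list by at least 1 bp, and are called shared regions. There were 328 of them, out of 578 untreated BRD2 regions (56.7%, exact 95% binomial interval 52.6% to 60.8%). They met 327 of 1716 RANKL regions (19.1%, 17.2% to 21.0%). The remaining 1389 RANKL regions and 250 untreated regions are called RANKL-only and untreated-only. The members were thus chosen by the positions of regions in these 2 lists, and what the 2 lists say about them is description. The series holds 16188 regions in 8 lists.

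Binding was measured by ChIP-seq, in which DNA precipitated with an antibody, here to BRD2 or BRD3, is sequenced. RAW264.7 is an established mouse line of macrophage-like cells that becomes osteoclasts when given RANKL. Cells had 4 h of RANKL (50 ng/ml) together with the bromodomain inhibitor I-BET (500 nM), of I-BET alone (500 nM) or of RANKL alone (50 ng/ml), or were left untreated. There was 1 library for each antibody and treatment, 8 with a peak list and 4 inputs that were not analysed here. The labels give bone marrow as the source beside the name of the cell line. With 1 library a group there is no replicate error and no test between treatments. Read depth is unknown. Intervals cover counting error over regions only, and every list is named by its antibody and treatment.

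BRD2 and BRD3 belong to the BET family, whose paired bromodomains bind acetylated lysines on histone tails at active promoters and enhancers and help transcription to proceed into elongation. I-BET occupies the acetyl-lysine pocket of these bromodomains. RANKL binds the receptor RANK on macrophage precursors, activates NF-kB and other signals, and starts the programme that leads to osteoclasts.

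A palindrome of 10 bases, in capitals in the first 9 sequences below, lay in the promoter windows of 13 of the 193 shared regions that overlapped such a window (6.74%, 3.63% to 11.2%). It was found for 0.755% of all protein-coding genes with a window. These windows, from RefSeq on GRCm38.p6, run from 250 bases before to 50 bases after an annotated transcription start. The element is known to be bound by BANP and was earlier linked to ZBTB33 (Kaiso). It is shown because, of the 15 motifs searched, it is the one whose share at shared regions was the largest multiple of that over all genes, and 3 promoters with an ETS-family core (CCGGAAGT) at genes of ribosomal proteins or of mitochondrial gene expression stand beside it. Each line gives 110 bases, 100 before the start and 10 from it, on the strand of the gene, with the motif in capitals.
Tmem18: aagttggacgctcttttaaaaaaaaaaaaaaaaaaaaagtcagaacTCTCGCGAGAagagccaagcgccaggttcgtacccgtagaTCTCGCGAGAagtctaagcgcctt
Rps28: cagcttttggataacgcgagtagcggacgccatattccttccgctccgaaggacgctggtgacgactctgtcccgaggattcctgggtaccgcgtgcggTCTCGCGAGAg
Rbm39: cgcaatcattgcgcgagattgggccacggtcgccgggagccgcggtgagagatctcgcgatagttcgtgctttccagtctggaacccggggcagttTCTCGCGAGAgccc
Rps19: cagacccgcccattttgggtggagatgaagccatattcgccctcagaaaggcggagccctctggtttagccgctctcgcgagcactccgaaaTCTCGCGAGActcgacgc
Hspa4: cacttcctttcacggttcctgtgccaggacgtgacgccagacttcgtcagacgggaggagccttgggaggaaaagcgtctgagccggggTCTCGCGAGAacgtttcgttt
Rpl10a: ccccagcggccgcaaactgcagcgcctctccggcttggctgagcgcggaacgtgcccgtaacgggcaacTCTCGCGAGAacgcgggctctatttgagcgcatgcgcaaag
Agbl3: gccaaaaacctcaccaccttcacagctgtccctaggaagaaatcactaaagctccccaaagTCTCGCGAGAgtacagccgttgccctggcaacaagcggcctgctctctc
Tmem209: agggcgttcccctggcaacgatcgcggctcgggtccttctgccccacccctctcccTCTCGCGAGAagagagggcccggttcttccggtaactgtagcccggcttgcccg
Tmco1: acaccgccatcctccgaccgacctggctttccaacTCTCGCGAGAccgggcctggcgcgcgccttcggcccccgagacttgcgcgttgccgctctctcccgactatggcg
Rps18: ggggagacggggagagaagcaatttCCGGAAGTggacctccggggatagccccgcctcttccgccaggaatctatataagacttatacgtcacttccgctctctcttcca
Rpl37: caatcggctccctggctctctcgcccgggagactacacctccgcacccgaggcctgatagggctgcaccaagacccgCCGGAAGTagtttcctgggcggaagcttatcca
Ptcd2: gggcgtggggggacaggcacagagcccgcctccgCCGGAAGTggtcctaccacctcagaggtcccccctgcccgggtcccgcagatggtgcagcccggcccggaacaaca
The first 9 hold the palindrome, and Tmem18 holds it at 2 places. These stretches lie at chr12:30584343-30584452 (plus strand) for Tmem18, chr17:33824553-33824662 (minus) for Rps28, chr2:156180229-156180338 (minus) for Rbm39 and chr7:24884492-24884601 (plus) for Rps19. Hspa4 has its stretch at chr11:53300470-53300579 (minus), Rpl10a at chr17:28328465-28328574 (plus), Agbl3 at chr6:34780332-34780441 (plus), Tmem209 at chr6:30509764-30509873 (minus) and Tmco1 at chr1:167308570-167308679 (plus). Those with the ETS core lie at chr17:33955656-33955765 (minus) for Rps18, chr15:5116513-5116622 (plus) for Rpl37 and chr13:99344669-99344778 (minus) for Ptcd2.

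Shared regions were matched closely between RANKL and untreated cells. The 3 shortest overlaps were 253, 267 and 274 bp, and the median was 792.5 bp. On the other side of the rule, the untreated-only regions nearest to a RANKL region were 1591, 3614 and 4414 bp away from it, and the median distance was 247 kb. No untreated-only region lay within 1 kb of a RANKL region. In 281 of the 328 pairs (85.7%) each region covered at least 50% of the other, and the midpoints lay a median of 97 bp apart. Median width was 1074 bp in the RANKL list and 904.5 bp in the untreated list, and the RANKL region was the wider of the pair in 240 cases and the narrower in 88. The median ratio of RANKL to untreated width was 1.21 (quartiles 0.986 and 1.56). Across the 328 pairs the widths went together with a Spearman rho of 0.687 and the authors' scores with a rho of 0.0945.

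BRD2 was called again at shared regions when I-BET was present, more often than at the other BRD2 regions. By the rule, shared regions were called in both the RANKL and the untreated list, and the other classes in only the RANKL or only the untreated list. How readily a region is called thus cannot be told apart here from binding that stays under the inhibitor. The list of RANKL with I-BET, the shortest of the 8 with 245 regions, met 83 of the 328 shared regions (25.3%, 20.7% to 30.4%). Among all 1967 distinct BRD2 regions of the RANKL and untreated lists the share was 9.81%. It was 5.33% (4.21% to 6.64%) for RANKL-only regions and 14.4% (10.3% to 19.4%) for untreated-only regions, and neither interval reached that of the shared regions. Seen from the other list, 84 of its 245 regions (34.3%) lay on a shared region. With I-BET alone, 173 shared regions (52.7%, 47.2% to 58.3%) had a BRD2 region, against a share of 31.7% over all 1967, 25.2% (22.9% to 27.6%) of RANKL-only and 40.0% (33.9% to 46.4%) of untreated-only regions. Both BRD2 lists with I-BET met 59 of the 328 shared regions, 50 of the 1389 RANKL-only and 27 of the 250 untreated-only regions. The 59 were thus called for BRD2 under all 4 treatments, which by the rule only shared regions could be.

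The order between shared and RANKL-only regions held within 4 classes of width for both BRD2 lists with I-BET. Width was read in the untreated list for shared and untreated-only regions, and in the RANKL list for RANKL-only regions. The classes thus do not match shared and RANKL-only regions on 1 measure, as shared regions were wider in the RANKL list (median 1074 bp against 904.5 bp). For I-BET alone, the intervals of shared and untreated-only regions overlapped in all but the widest class. There the shares were 68.6% (57.7% to 78.2%) of shared and 33.3% (19.6% to 49.5%) of untreated-only regions. For RANKL with I-BET these intervals overlapped in each class. From the narrowest class to the widest, RANKL with I-BET was met by 17.6%, 23.0%, 31.2% and 27.9% of shared regions, against 1.22%, 5.48%, 6.34% and 7.97% of RANKL-only and 9.88%, 11.1%, 18.8% and 21.4% of untreated-only regions. With only the higher-scoring 50% of each list the shares were 15.1% of 93 shared, 3.14% of RANKL-only and 13.8% of untreated-only regions, so the distance to untreated-only regions was no longer seen. Regions are not replicates of a condition, so no test was made between classes.

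**Figure D1:**
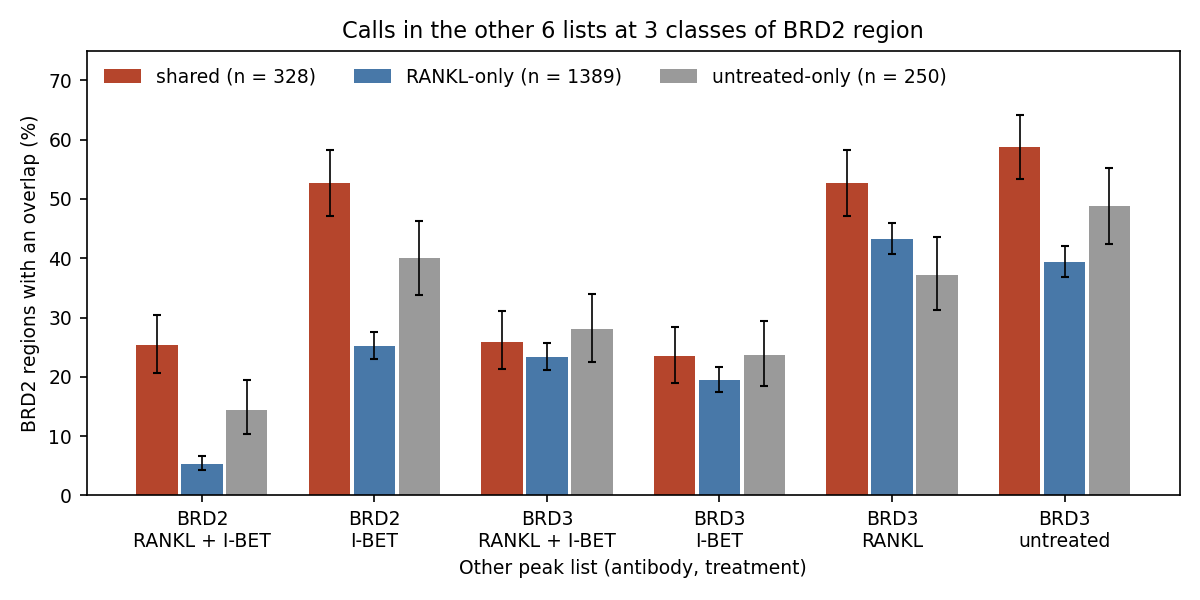
Share of BRD2 regions (y axis, %) that overlap a region of each of the other 6 peak lists (x axis), for shared, RANKL-only and untreated-only regions; error bars are exact 95% binomial intervals over regions, with 1 library per list. In both BRD2 lists with I-BET the shared bars (25.3% and 52.7%) stand above the other classes, while in the BRD3 lists with I-BET the 3 classes lie between 19.5% and 28.0%.

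BRD3 was called at most shared regions in at least 1 treatment, 229 of 328 (69.8%, against 57% of all 1967 BRD2 regions). Under RANKL with I-BET it was called at 85 (25.9%, 21.3% to 31.0%, against 24.4% of all), and under I-BET alone at 77 (23.5%, 19.0% to 28.4%, against 20.7%). Both shares were near the background. Without the inhibitor the shares were higher. RANKL alone had 173 (52.7%, 47.2% to 58.3%, against 44.1% of all), where RANKL-only regions had 43.3% (40.6% to 45.9%) and untreated-only regions 37.2% (31.2% to 43.5%). Untreated cells had 193 (58.8%, 53.3% to 64.2%, against 43.8% of all), where RANKL-only regions had 39.4% and untreated-only regions 48.8% (42.5% to 55.2%). For untreated cells the intervals of shared and untreated-only regions overlapped, and those of shared and RANKL-only regions did not. In the higher-scoring 50% of each list the RANKL shares were 22.6% for shared, 22.2% for RANKL-only and 23.5% for untreated-only regions. The RANKL difference thus did not remain. For untreated cells that setting gave 29.0% of shared (20.1% to 39.4%) and 22.0% of RANKL-only regions (19.1% to 25.1%). The untreated-only interval was 19.1% to 31.7%, and all 3 intervals overlapped.

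Shared regions with BRD3 in untreated cells had a BRD3 region under I-BET less often than the untreated BRD3 list as a whole. Of the 193, 67 were also called for BRD3 with I-BET (34.7%, 28.0% to 41.9%), against 53.2% of all 3668 untreated BRD3 regions. The share was 44.8% of 547 RANKL-only and 41.8% of 122 untreated-only BRD2 regions. For RANKL, 78 of 173 shared regions with BRD3 were also called for BRD3 when I-BET was given with it (45.1%, 37.5% to 52.8%), against 64.4% of all 3840 RANKL BRD3 regions, 49.6% of 601 RANKL-only and 66.7% of 93 untreated-only BRD2 regions. BRD3 regions on shared BRD2 regions were wide, with a median of 1137.5 bp in untreated cells against 692.5 bp elsewhere. Among untreated BRD3 regions of 533 to 712 bp, 11 of 33 on shared regions (33.3%) and 608 of 883 elsewhere (68.9%) met an I-BET region. From 713 to 1117 bp the shares were 37.9% of 58 and 58.6% of 856. Above that width they were 35.0% of 100 and 37.0% of 817, so the distance was seen in the narrower regions and not in the widest. Under RANKL the shares from 527 to 679 bp were 44.0% of 25 and 81.5% of 937, from 680 to 1052 bp 56.9% of 51 and 76.8% of 907, and above that width 45.3% of 86 and 41.0% of 874. Of the 83 shared regions called for BRD2 under RANKL with I-BET, 24 had a BRD3 region under the same treatment (28.9%, against 30.2% of that whole BRD2 list), and of the 173 under I-BET 40 did (23.1%, against 20.1%). For BRD2 itself, 59 of the 173 shared regions called for BRD2 under I-BET were also called for BRD2 under RANKL with I-BET (34.1%, against 14.4% of the whole I-BET list).

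The combinations of calls at single shared regions were varied. The largest group, 44 regions (13.4%, 9.92% to 17.6%, against 31% of all 1967), had a call in none of the other 6 lists. For 32 the only other call was BRD2 with I-BET, and for 17 both BRD2 lists with I-BET were the only other calls. A further 31 had BRD2 with I-BET together with BRD3 under RANKL and in untreated cells. BRD3 was called in all 4 treatments, with no BRD2 call under I-BET, at 25. All 6 other lists held a region at 11 shared regions (3.35%, 1.69% to 5.92%, against 1.47%). Regions met by no other list, or by only 1, were narrow in untreated cells, with medians of 647 bp and 700 bp, while those met by 2 or more had medians between 976 bp and 1079 bp.

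**Figure D2:**
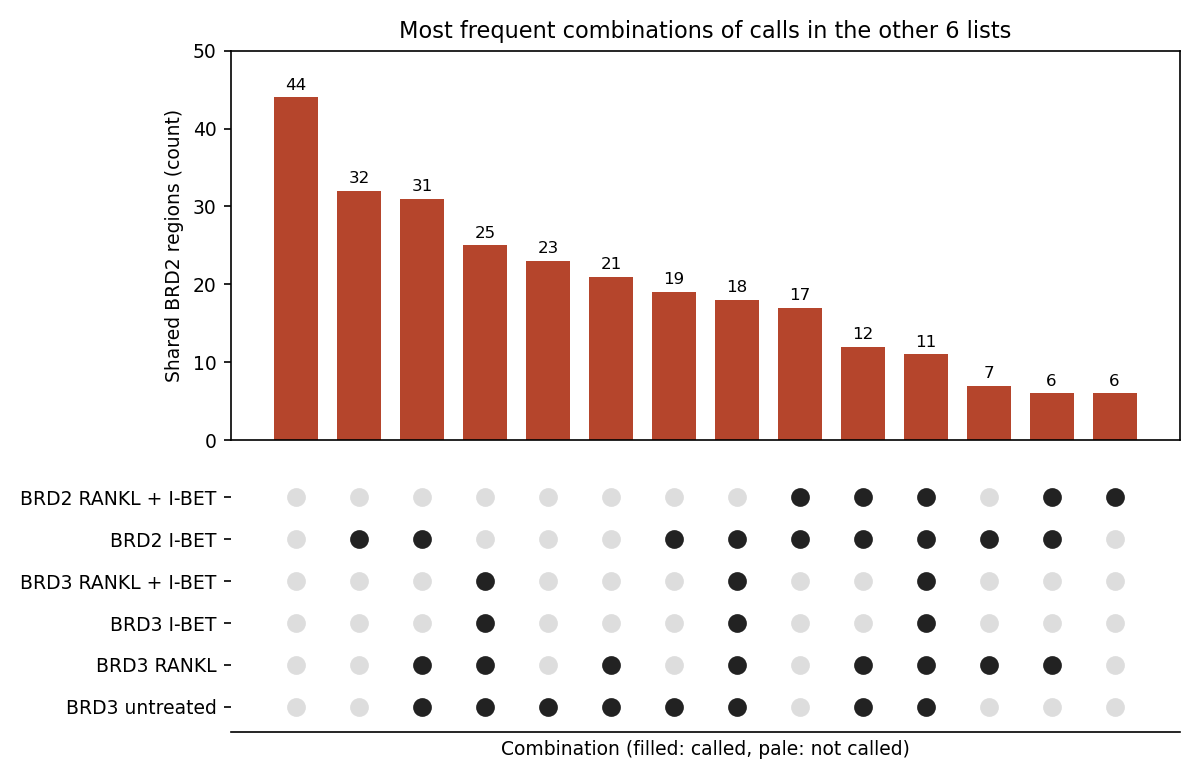
Number of shared BRD2 regions (y axis, count) for the 14 most frequent combinations of calls in the other 6 lists, with filled circles for lists that hold an overlapping region. No other call is the most frequent combination with 44 regions, and 11 regions were called in every list.

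In 99 shared regions no BRD3 list held a region. Of these, 77 had their midpoint within 1 kb of a gene end (77.8%, 68.3% to 85.5%), against 137 of the 229 with BRD3 (59.8%, 53.2% to 66.2%). They were also narrower, with median widths of 808 bp under RANKL and 637 bp in untreated cells, against 1215 bp and 1009 bp for shared regions with BRD3. BRD2 was called again with I-BET at 49 of the 99 and with RANKL and I-BET at 23, against 124 and 60 of the 229. These counts were near the shares over all 328 shared regions (52.7% and 25.3%). BRD2 calls under the inhibitor thus also occurred without a BRD3 call at the same place.

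Where the other lists held a region, its width differed by treatment. Under RANKL with I-BET the BRD2 regions at 83 shared regions had a median of 669 bp, against 992 bp for the same regions in untreated cells, and 68 of the 83 were narrower. Under I-BET alone the median was 993 bp over 173 regions, against 1036 bp in untreated cells. BRD3 regions had medians of 697 bp under RANKL with I-BET (85 regions), 746 bp under I-BET (77), 1060 bp under RANKL (173) and 1139 bp in untreated cells (193). In the same order of treatments, whole lists had medians of 612, 858, 877 and 828 bp for BRD2 and 571, 640, 679 and 712 bp for BRD3. Narrow calls under RANKL with I-BET were thus not particular to shared regions. Width depends on depth and enrichment as well as on the extent of binding, and these cannot be told apart in the lists.

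**Figure D3:**
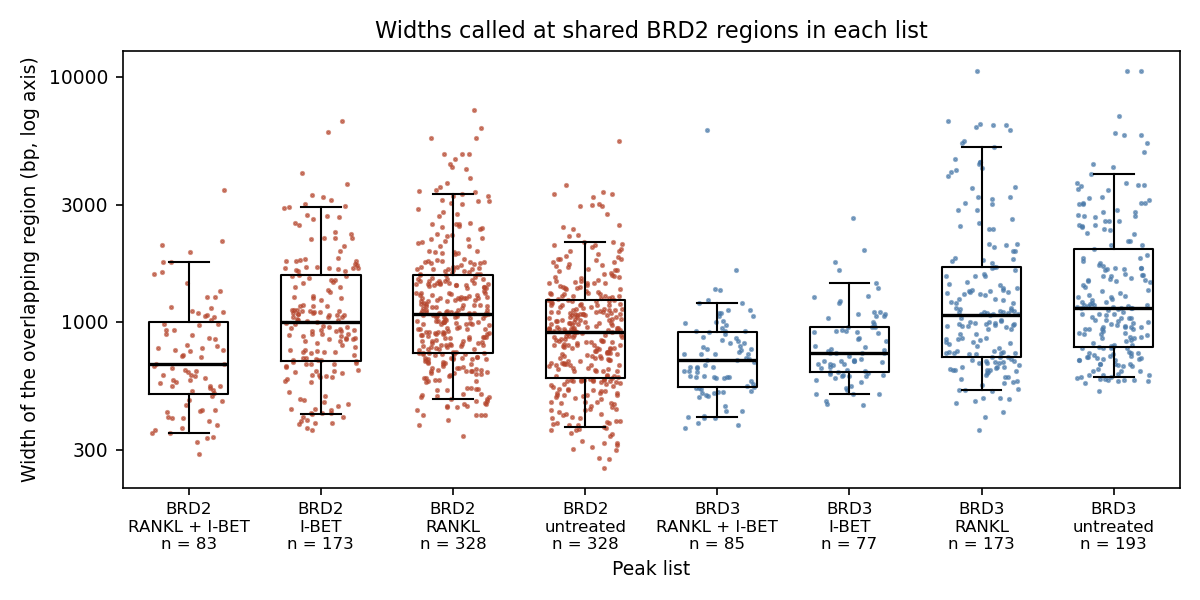
Width (y axis, bp, log scale) of the region that overlaps each shared BRD2 region in each peak list (x axis); points are regions, boxes show the median and quartiles, and whiskers the 5th and 95th percentiles. The medians are 669, 993, 1074 and 904.5 bp for BRD2 and 697, 746, 1060 and 1139 bp for BRD3, in the order of the axis.

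Most shared regions lay at the ends of protein-coding genes. The midpoint was within 1 kb of a gene end for 214 (65.2%, 59.8% to 70.4%, against 63.3% of all 1967 BRD2 regions), elsewhere in a gene for 63 and between genes for 51. Gene ends here are the outermost ones, so a start inside a gene is not counted: of 61 regions elsewhere in a gene on chromosomes of the RefSeq promoter table, 36 (59.0%) had their midpoint within 1 kb of a listed start. RANKL-only regions were at a gene end in 61.0% of cases (58.4% to 63.6%) and untreated-only regions in 73.6% (67.7% to 79.0%). The share of shared regions was thus near the background. Where the gene had an entry in the RefSeq promoter table, the end was nearly always the start: 206 of 221 pairs of a shared region and a gene (93.2%). Of 316 shared regions on chromosomes of that table, 214 had their midpoint within 1 kb of a listed start, at a median of 59 bp downstream of it (quartiles -92.75 and 192 bp, where negative is upstream). A shared region touched the ends of 2 or more genes in 39 of 227 cases (17.2%).

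Shared regions between genes had BRD3 without the inhibitor more often than those at gene ends. BRD3 was called at 70.6% of the 51 regions between genes under RANKL and 74.5% in untreated cells, against 47.2% and 53.3% of the 214 at gene ends. Under I-BET the shares were 15.7% between genes (8 regions, 7.02% to 28.6%) and 24.3% at gene ends (52 regions, 18.7% to 30.6%), and the intervals overlapped. Width moved with place, with untreated medians of 1061 bp between genes and 839.5 bp at gene ends, and its part in this was not tested. Untreated width itself went with BRD3: in untreated cells BRD3 was called at 80.5% of the 82 widest shared regions and at 40.2% of the 82 narrowest. This was not particular to shared regions. In the widest and narrowest of the width classes above, the shares were 78.6% and 33.3% of untreated-only and 53.8% and 32.8% of RANKL-only regions.

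A shared region lay within 1 kb of an end of 267 protein-coding genes, 1.22% of 21883. Any region of the RANKL list lay there for 6.21%, of the untreated list for 2.26%, and of either for 7.25%. Cytosolic ribosomal protein genes, which every growing cell transcribes strongly, formed the largest listed group, with 16 of 86 genes (18.6%), while 50 of the 86 (58.1%) had some BRD2 region. They were Rpl6, Rpl7a, Rpl10a, Rpl13a, Rpl27a, Rpl32, Rpl34, Rpl37, Rps7, Rps10, Rps14, Rps18, Rps19, Rps24, Rps28 and Rps29. They made up 5.99% of the genes with a shared region, against 2.47% of the genes with a RANKL-only region and 3.07% of those with an untreated-only region. BRD2 with I-BET was called at 11 of the 16, and BRD2 under RANKL with I-BET at 4 (Rpl13a, Rpl37, Rps10 and Rps18). BRD3 was called at 4 of the 16 under RANKL with I-BET, at 2 under I-BET, at 8 under RANKL and at 7 in untreated cells. Over all 267 genes with a shared region the shares were 26.6% for BRD2 under RANKL with I-BET and 52.4% under I-BET, and for BRD3 27.7% under RANKL with I-BET, 23.2% under I-BET, 46.1% under RANKL and 52.1% in untreated cells. With 16 genes, counts this close to those shares show nothing particular to ribosomal protein genes. Ribosomal protein genes have many processed copies in the genome, and the sources used here do not say how reads with several matches were treated.

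Rps10, which encodes a protein of the small ribosomal subunit, was the only ribosomal protein gene called in all 8 lists. Its untreated BRD2 region was chr17:27634846-27635272, at an end of the gene (chr17:27630415-27635244). BRD2 regions there were 405 bp wide under RANKL with I-BET, 619 bp under I-BET, 685 bp under RANKL and 427 bp in untreated cells. BRD3 regions were 572 bp wide under RANKL with I-BET, 622 bp under I-BET, 1000 bp under RANKL and 789 bp in untreated cells. For both proteins the widest call was under RANKL.

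Rpl10a, a large-subunit gene with the palindrome 31 bases before its start, had a shared region at chr17:28327993-28329020. BRD2 was not called there under RANKL with I-BET, and had 830 bp under I-BET, 1312 bp under RANKL and 1028 bp in untreated cells. BRD3 had 593 bp under RANKL with I-BET, 670 bp under I-BET, 890 bp under RANKL and 1735 bp in untreated cells. Rps19 had a BRD2 region of 1260 bp under RANKL and 405 bp in untreated cells, and its only other call was BRD2 with I-BET. Rps18, with the ETS core shown, had BRD2 widths of 980 bp under RANKL with I-BET, 995 bp under RANKL and 992 bp in untreated cells, and no BRD2 call under I-BET alone. The palindrome and the ETS core thus both occurred at ribosomal protein promoters with unlike sets of calls.

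Splicing factor and hnRNP genes, whose products process pre-mRNA, were the next group, with 9 of 78 (11.5%). Among them were Hnrnpa3, Hnrnpab, Hnrnph3, Hnrnpu, Snrpd1 and Srsf4. They were 3.37% of genes with a shared region, 1.28% of genes with a RANKL-only region and 1.75% of those with an untreated-only region. None of the 9 had BRD2 under RANKL with I-BET and 5 had it under I-BET alone, beside the 26.6% and 52.4% of all 267 genes, and 9 genes are too few to read a difference from. Srsf4, an SR splicing factor gene, had BRD2 regions of 952 bp under I-BET, 842 bp under RANKL and 884 bp in untreated cells, and BRD3 in every treatment with widths between 1050 and 1222 bp. At Hnrnpu, whose product binds nuclear RNA, BRD3 was 411 bp wide under RANKL with I-BET, 504 bp under I-BET, 593 bp under RANKL and 1762 bp in untreated cells.

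Other growth genes were fewer. Heat shock and chaperone genes numbered 4 of 72: Hspa4, Hspa9, Cct4 and Dnajb4. Translation factor genes numbered 3 of 74. Among them, Eif4e, which encodes the protein that binds the mRNA cap, had BRD2 under all treatments (886 bp under RANKL with I-BET, 831 bp under I-BET, 1106 bp under RANKL and 929 bp in untreated cells) and BRD3 in all but untreated cells. Oxidative phosphorylation genes were Ndufa7, Ndufc2 and Uqcrh, 3 of 98. Mitochondrial ribosomal protein genes were Mrpl21 and Mrps27, 2 of 78 (2.56%), while 25 of the 78 had some BRD2 region. Single members came from the nucleolar (Mybbp1a), histone (H4c14), lysosomal (Ctsa), helicase (Ddx6) and MYC (Eif4e) lists, and 4 of 394 from the zinc finger Zfp list. Among regulators of transcription, Ccnt2, a cyclin of the elongation factor P-TEFb, and the Integrator and Mediator genes Ints3 and Med22 had a shared region. Ccnt2 had the narrowest BRD2 call of these, with 481 bp under RANKL and 303 bp in untreated cells, and BRD3 in all 4 treatments.

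**Figure D4:**
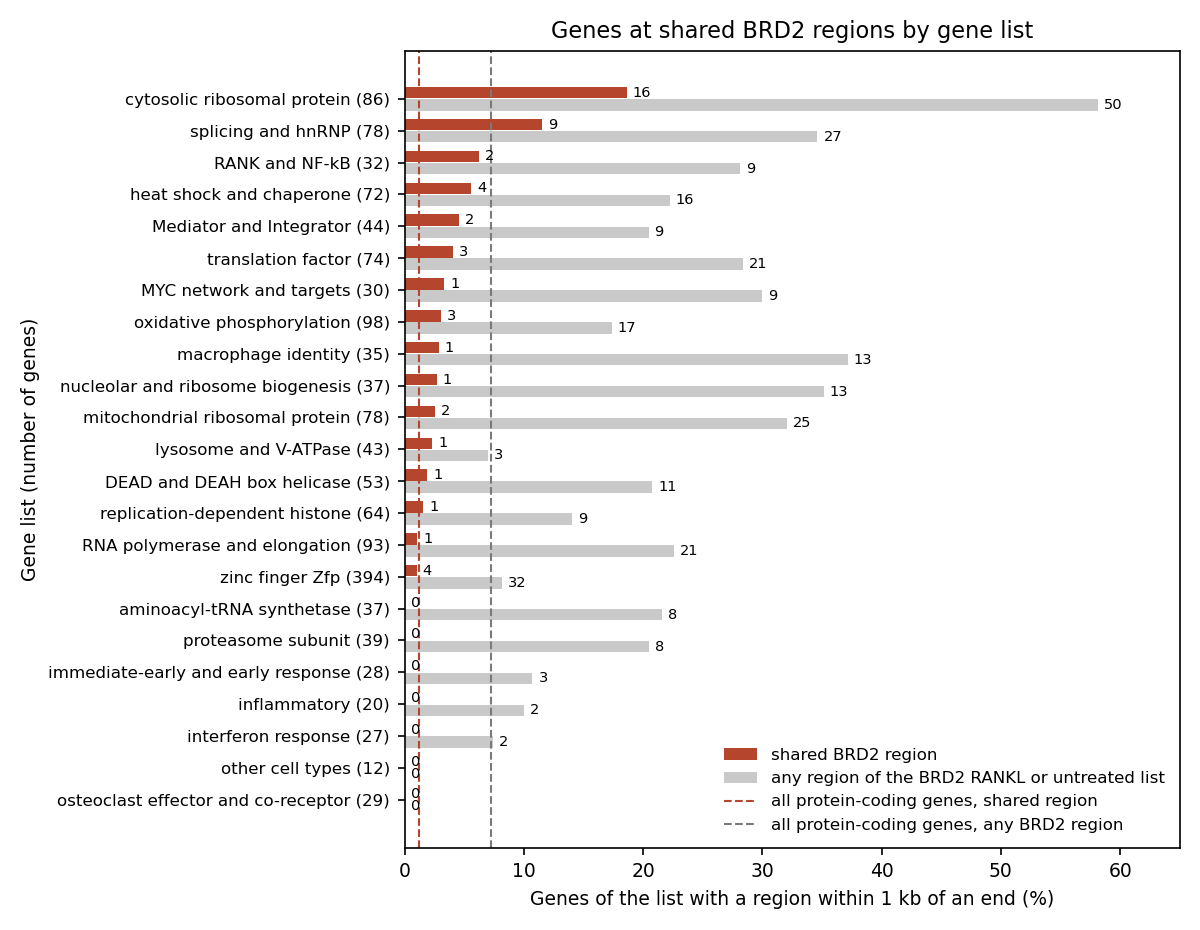
Share of the genes of each list (x axis, %) with a shared BRD2 region and with any region of the RANKL or untreated BRD2 list within 1 kb of an end; numbers beside bars are genes, numbers in brackets the genes of the list, and dashed lines the shares over all protein-coding genes (1.22% and 7.25%). Cytosolic ribosomal protein genes stand first with 16 of 86, and 7 lists have no gene at a shared region.

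At a background of 1.22%, lists of the size used for the osteoclast and macrophage programmes hold few genes with a shared region, so small counts there show no lack. None of 29 osteoclast genes, 28 immediate-early genes, 27 interferon genes and 20 inflammatory genes had one at an end, nor did any of the 37 aminoacyl-tRNA synthetase genes or of the 39 listed Psma to Psmd proteasome genes. Sem1, a proteasome component outside that list, did have one, and a shared region lay with its midpoint at -397 bp (upstream) from a listed start of Psma6, which is not its outermost end. None of the 12 marker genes of other cell types had one, or a region of any of the 8 lists. Of 35 macrophage identity genes, 1 had a shared region at an end (2.86%), while 13 had some BRD2 region (37.1%, against 7.25% of all protein-coding genes). The gene with a shared region was Spi1, which encodes the myeloid factor PU.1. Its untreated BRD2 region, chr2:91081805-91084554, covered one end of the gene (chr2:91082374-91115759). BRD2 there was 605 bp wide under RANKL with I-BET, 3649 bp under I-BET, 4851 bp under RANKL and 2750 bp in untreated cells. BRD3 was not called under RANKL with I-BET and was 948 bp wide under I-BET, 6587 bp under RANKL and 4010 bp in untreated cells. Both proteins thus had their widest call at Spi1 under RANKL, and a narrow call or none when the inhibitor was added to it.

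A further 9 regulators looked up by name had no shared region at an end. Csf1r, the receptor for the macrophage growth factor, Brd2 itself, Hexim1, an inhibitor of P-TEFb, and the nuclear RNAs Malat1 and Neat1 had a BRD2 region at an end under RANKL and not in untreated cells. Cebpa, a myeloid transcription factor gene, had one in untreated cells and not under RANKL. Myc, Fos and Jun had one in neither.

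Of 32 genes of RANK and NF-kB signalling, Nfkb1 and Tab1 had a shared region, while 9 had some BRD2 region. Nfkb1 encodes the NF-kB subunit p50 and its precursor. Its BRD2 regions were 1095 bp wide under I-BET, 1082 bp under RANKL and 1112 bp in untreated cells (chr3:135690788-135691899), and none was called under RANKL with I-BET. BRD3 was called there only under RANKL, with 362 bp. Tab1, whose product activates the kinase TAK1, had BRD2 regions of 1409 bp under RANKL and 708 bp in untreated cells (chr15:80133112-80133819) and none with I-BET. BRD3 at Tab1 was 432 bp wide under RANKL with I-BET, 691 bp under I-BET, 1293 bp under RANKL and 1116 bp in untreated cells. The 2 genes had opposite sets of calls, with BRD2 but no BRD3 under I-BET at Nfkb1 and the reverse at Tab1.

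Some of the widest shared regions lay at starts and others far from any listed start. Inside Lcp1, the gene of the leukocyte actin-bundling protein L-plastin, BRD2 was 5633 bp wide under RANKL and 3608 bp in untreated cells (chr14:75177466-75181073), with no BRD2 call in either list with I-BET. BRD3 at Lcp1 was 599 bp wide under RANKL with I-BET, 1755 bp under I-BET, 5490 bp under RANKL and 5356 bp in untreated cells. In Zeb2, a gene of a zinc finger repressor used by myeloid cells, BRD2 was 3227 bp wide under I-BET, 3448 bp under RANKL and 3316 bp in untreated cells (chr2:45109598-45112913), with the midpoint at -978 bp from a Zeb2 start. BRD3 at Zeb2 was 4482 bp wide under RANKL and 10614 bp in untreated cells and was not called with I-BET. A second shared region in Zeb2 followed 2930 bp away.

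Between genes, 47698 bp past the higher-coordinate end of Lpp on chromosome 16, a shared region at chr16:25040276-25043246 had BRD2 widths of 3027 bp under I-BET, 4295 bp under RANKL and 2971 bp in untreated cells, and BRD3 widths of 6257 bp under RANKL and 4932 bp in untreated cells. The next, at chr16:25057143-25060099, lay 13896 bp on, and another followed after 1063 bp that met the same RANKL region. The midpoint of the second was at -1018 bp from a start of the lncRNA gene A230028O05Rik. At the second of these BRD2 was called in all 4 treatments, with 670 bp under RANKL with I-BET, 2734 bp under I-BET, 4828 bp under RANKL and 2957 bp in untreated cells. BRD3 was not called with I-BET at either. At Lcp1, Zeb2 and these Lpp regions the BRD3 calls that had the inhibitor were narrower than those without it, or absent.

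Further wide regions lay at listed starts of Tgif1 (3119 bp under RANKL and 3339 bp in untreated cells) and Tnrc18 (7294 bp under RANKL and 3241 bp in untreated cells), and in Rhof (4612 bp under RANKL and 3383 bp in untreated cells). The widest in untreated cells, chr17:39843336-39848799, was 5649 bp under RANKL and 5464 bp in untreated cells, and overlapped the ribosomal RNA pseudogene Rn18s-rs5. BRD3 there was 6077 bp wide under RANKL with I-BET and 6054 bp under RANKL, and was not called under I-BET or in untreated cells, unlike at the wide regions above. Ribosomal RNA sequence is present in many copies, and how reads from such copies were placed is not known.

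The 11 shared regions present in every list lay at Tardbp, Tmem209 with Ssmem1, Rps10, Ptma, Mtg1, Gm34296, Ncor1 with Pigl, Rprd2 and a start of Kansl1, and between genes near Rbx1 and Tex44. Tardbp encodes an RNA-binding protein, Ncor1 a corepressor and Kansl1 a scaffold of a histone acetyltransferase complex. At Tardbp (chr4:148626079-148626744) BRD2 was 546 bp wide under RANKL with I-BET, 604 bp under I-BET, 603 bp under RANKL and 666 bp in untreated cells. BRD3 there was between 951 and 1338 bp wide in the 4 treatments. At Ptma, the gene of prothymosin alpha, BRD3 was 666 bp wide under RANKL with I-BET, 2645 bp under I-BET, 3228 bp under RANKL and 3067 bp in untreated cells. Presence in all lists thus went with stable widths at Tardbp and with a narrower BRD3 call under RANKL with I-BET at Ptma.

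Of the 44 shared regions with no other call, those with the highest lower score of the pair lay at Zc3hc1, Racgap1, Pan2, Brpf3, Cyb5d2, Tmco4, Ino80, Luzp1, Axl with Hnrnpul1, and a start of Eif4g3. At Ino80, which encodes the ATPase of a chromatin remodeller, the BRD2 region was 1426 bp wide under RANKL and 1313 bp in untreated cells (chr2:119477228-119478540). At Racgap1, whose product acts in cytokinesis, it was 770 bp and 959 bp wide in the same order. Brpf3, a subunit gene of histone acetyltransferase complexes, had 599 bp and 693 bp. They were picked for their scores. The authors' scores were 48.7 under RANKL and 112 in untreated cells at Brpf3, and 58.7 and 49.0 at Racgap1.

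The highest lower scores of the pair over all members lay at Sem1, Slc20a2 with Smim19, Srp19, Snrpd1, Pnisr, Gabpb2 and Epc1, and between genes near Cstdc2, Cdkn1b and Enpp6. Sem1, a proteasome component gene, scored 198 under RANKL and 118 in untreated cells, and Slc20a2, a phosphate transporter gene, 271 and 103. Their only other call was BRD3 in untreated cells. A high score thus did not go with calls in many lists. BRD2 with I-BET was called at 46.7% of the 75 members with the highest lower scores and at 56.4% of the 94 with the lowest. BRD3 in untreated cells was called at 56.0% of the 75 and at 62.8% of the 94. The score is the authors' own value and its unit is not stated.

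Promoter windows of genes (250 bases before to 50 after a start) overlapped 193 shared regions, for 212 genes. The whole window was read for motifs, also where it reached past the region. The palindrome was found in the windows of 15 of those 212 genes (7.08%, 4.01% to 11.4%), against 0.755% of all 17491 protein-coding genes in the table. By region, its share was 6.74% (3.63% to 11.2%) for the 193 shared, 2.34% (1.37% to 3.72%) for 726 RANKL-only and 2.53% (0.694% to 6.35%) for 158 untreated-only regions. For BRD2, the list with RANKL and I-BET had 6.02% (2.63% to 11.5%) and that of I-BET alone 4.74% (3.14% to 6.82%), while the 4 BRD3 lists lay between 1.26% and 1.57%. All intervals of the BRD3 lists lay below that of the shared regions, the interval of the RANKL-only regions overlapped it by a narrow margin, and that of the untreated-only regions overlapped it widely. A palindrome reads the same on both strands, and this one contains no other motif searched.

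The 13 regions with the palindrome in an overlapping promoter window lay at Tmco1, Nprl3, Hspa4, Tmem18, Gdi2, Rpl10a, Rps28 with Ndufa7, Rbm39, Ube2d3, Exosc10, Tmem209 with Ssmem1, Agbl3 and Rps19. At Agbl3 and Ube2d3 the palindrome itself lay outside the untreated BRD2 region. The first base of the palindrome lay between 156 bases before a start, at Ube2d3, and 39 bases after one, at Nprl3. BRD2 with I-BET was called at 10 of the 13 (76.9%, 46.2% to 94.96%), against 87 of the 180 other shared regions with a window (48.3%, 40.8% to 55.9%). The other lists met 3 of the 13 (BRD2, RANKL with I-BET), 5 (BRD3, RANKL with I-BET), 5 (BRD3, I-BET), 6 (BRD3, RANKL) and 8 (BRD3, untreated). In that order these were 23.1%, 38.5%, 38.5%, 46.2% and 61.5%, against 25%, 26.7%, 23.3%, 42.8% and 50.6% of the 180 others. At Tmem18, with 2 palindromes, BRD2 was 461 bp wide under RANKL and 454 bp in untreated cells, and no other list held a region. At Tmem209 all 8 lists did. The count of 13 is small, and the intervals overlapped.

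In point values, BRD2 classes differed less from each other than from the BRD3 lists for the ETS, YY1, NRF1 and GC box motifs. For ETS and YY1 the margin was small. The untreated-only intervals (7.91% to 18.9% for ETS and 3.53% to 12.1% for YY1) held the shares of all BRD3 lists. The ETS core CCGGAAGT was in windows of 14.5% of shared, 14.7% of RANKL-only and 12.7% of untreated-only regions, against 9.33% to 10.2% in the BRD3 lists and 5.69% of all genes. The YY1 element AAGATGGCG was at 8.81%, 7.16% and 6.96% of the same classes, against 4.48% to 5.09% in the BRD3 lists and 2.14% of all genes. The NRF1 palindrome was at 8 shared regions (4.15%), against 8.26% to 11.1% in the BRD3 lists and 1.47% of all genes. The GC box GGGCGG was at 59.6% of shared regions, against 74.1% to 77.0% in the BRD3 lists and 49.2% of all genes.

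The cAMP response element TGACGTCA was rarer at shared than at RANKL-only regions, at 2 of 193 (1.04%, 0.126% to 3.69%), against 39 of 726 (5.37%, 3.85% to 7.27%). It was at 3.80% of untreated-only regions and 2.54% of all genes. For the E-box CACGTG the shares were 15.5% of shared, 12.1% of RANKL-only and 12.03% of untreated-only regions and 8.91% of all genes. The shares of shared regions and of all genes were 34.7% and 42.3% for the CCAAT box CCAAT, and 5.18% and 3.51% for the initiator CTCTTTCC. The TATA box TATAAA was at 9.33% of shared, 7.71% of RANKL-only and 5.06% of untreated-only regions and 14.8% of all genes. For the AP-1 element TGANTCA the shares of shared regions and of all genes were 4.15% and 8.12%, for the PU.1 elements GAGGAAGT 4.15% and 3.64% and GGAAGTGA 5.70% and 4.4%, and for the NF-kB element 0.518% and 0.48%. The ZNF143 element called SBS was in no window of a shared region and at 0.475% of all genes. Every motif was read on both strands, and the ETS and PU.1 elements share letters. A match is a description of the letters and not a site, and a window without one says nothing about the factor. Median GC content of the windows was 60.3% at shared, 62.3% at RANKL-only and 63.3% at untreated-only regions, and 56.3% over all windows.

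**Figure D5:**
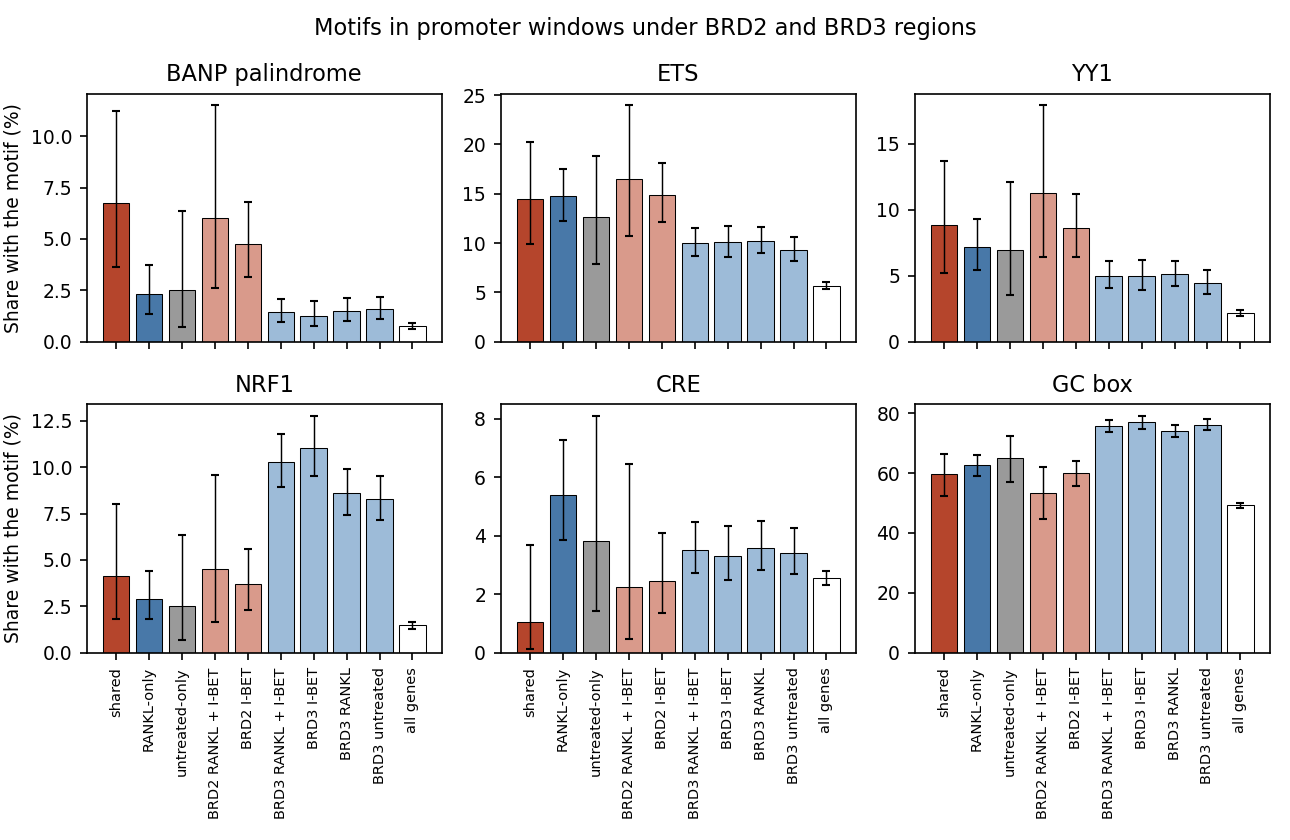
Share (y axis, %) of regions with a promoter window that holds each of 6 motifs, for shared, RANKL-only and untreated-only BRD2 regions, for the other 6 lists and for all protein-coding genes; error bars are exact 95% binomial intervals. The palindrome stands at 6.74% for shared regions against 1.26% to 1.57% in the BRD3 lists, and the CRE at 1.04% against 5.37% for RANKL-only regions.

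Shared regions overlapped 5 annotated miRNA genes (1.52% of 328, 0.497% to 3.52%), namely Mirlet7i, Mir1893, Mir5132, Mir5620 and Mir7666. RANKL-only regions overlapped 6 (0.432% of 1389) and untreated-only regions 1 (0.400% of 250), and the intervals overlapped. The 5p form of let-7i is shown because it belongs to the let-7 family, which represses growth genes. It lies at chr10:122985698-122985719 on the minus strand (RefSeq, GRCm38.p6), inside the shared region chr10:122985372-122986827, and its seed, bases 2 to 8, is in capitals.
let-7i-5p: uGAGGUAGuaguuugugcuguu
BRD2 there was 338 bp wide under RANKL with I-BET, not called under I-BET, 794 bp wide under RANKL and 1456 bp wide in untreated cells. BRD3 was not called under RANKL with I-BET and was 455 bp wide under I-BET, 637 bp under RANKL and 1659 bp in untreated cells. Both proteins had their widest call at Mirlet7i in untreated cells.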

How the data were processed

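BRD2 and BRD3 binding in RAW264.7 cells was represented by 8 peak lists, 1 per antibody and treatment. Per the submitters' processing notes, the tools were MACS2 2.1.1.20160309, Bowtie2 2.3.4.1 and FastQC, the build was mm10/GRCm38, and no settings are given. Per the file headers and peak names in the deposited lists, regions join peaks from 3 sets of unstated meaning. Exactly 3 peaks were joined in 573 of the 578 untreated BRD2 regions. With only such regions kept in every list, 321 members remained. A score, of unstated unit, was deposited by the authors for each region. Positions are counted from 1.

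Overlaps, widths, distances and exact (Clopper-Pearson) 95% intervals were computed with Python 3.11.15, pandas 2.3.3 and scipy 1.17.1, and the overlap code was tested on simulated intervals. With 1 library a group no test was possible. Genes and promoter windows came from RefSeq (GRCm38.p6): 21883 protein-coding genes, 17491 of them with a window. Gene ends are within 1 kb, and the gene table gives no strand. Named genes were list members with a shared region at an end (at most 8 per list, by number of other lists and then lower score), the 10 highest lower scores, the 10 widest, those in all 8 lists, the 10 highest-scoring in no other list, and fixed genes. Examples beyond these (such as Rps19, and the genes whose promoters are shown) were chosen after their values were seen. Some genes that the rule names are not reported here. Members, lists and motifs were chosen with earlier results of these data known. Alternatives were stricter overlaps, the higher-scoring 50% of each list, lists of equal length, only regions of 3 joined peaks, width classes and other gene-end distances. Read depth was unknown and no input was used.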

Additional observations from a re-analysis of the deposited data

How the results depend on the processing

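With 1 library a group, counting error is the only error known, and depth, which limits every list, is not. Asking for 50% of both regions left 281 members and moved the BRD3 shares to 16.0% (RANKL with I-BET), 17.4% (I-BET), 42.7% (RANKL) and 52.3% (untreated). Asking for midpoints within 250 bp gave 16.5%, 14.9%, 35.6% and 42.9% in the same order, and 43.7% for BRD2 with I-BET. The higher-scoring 50% of each list left 93 members, 77 genes and a median width of 801 bp. The shares were then 15.1% (RANKL with I-BET) and 33.3% (I-BET) for BRD2, and 16.1% (RANKL with I-BET), 11.8% (I-BET), 22.6% (RANKL) and 29.0% (untreated) for BRD3. By construction fewer regions were compared there. With other lists cut to 245 regions BRD2 with I-BET had 14.6%, and BRD3 had 2.74%, 3.35%, 4.88% and 3.66% in the order used for BRD3 above. Gene ends of 250 bp and 5 kb gave 41.5% and 78.7%. By width class, narrow to wide, the shares that moved were as follows. In the first class BRD2 had 17.6% (RANKL with I-BET) and 42.4% (I-BET), and BRD3 20%, 17.6%, 35.3% and 38.8%. In the second class BRD2 with I-BET had 45.9%, and BRD3 31.1% (RANKL with I-BET) and 42.6% (RANKL). The third had 31.2% for BRD2 under RANKL with I-BET, and 29.2% (I-BET) and 61.5% (RANKL) for BRD3. The fourth had 68.6% for BRD2 with I-BET, and 67.4% (RANKL) and 79.1% (untreated) for BRD3. The cause of these moves was not tested. Of 66 values recomputed 26 stayed within their interval, or for counts within 1.5 times, and 40 moved. Both BRD2 shares under I-BET were higher for shared than for RANKL-only regions in every one of these settings. Over untreated-only regions they were higher too, but by little in places (with I-BET 52.1% against 51.6% in the third width class and 45.9% against 42.9% in the second), and BRD3 in untreated cells was at 3.66% of shared, 2.52% of RANKL-only and 4.40% of untreated-only regions with lists of 245. No paired analysis was possible because each group had 1 library.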

Other observations

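Long non-coding RNA genes overlapped 46 shared regions (14.02%, 10.5% to 18.3%), against 190 RANKL-only regions (13.7%) and 38 untreated-only regions (15.2%). On chromosome 18 there were 12 of the 328 shared, 44 of the 1389 RANKL-only and 1 of the 250 untreated-only regions. This chromosome was picked after the counts of all chromosomes were seen, and its split was not tested. Some shared regions lay near listed starts that are not the outermost ends of the gene. Such genes are not counted above as having a shared region at an end. Midpoints were at -44 bp from a start of Rpl19, a ribosomal protein gene, and -357 bp from one of Hnrnpf, a splicing regulator gene. Others were at 73 bp and 506 bp from starts of the zinc finger genes Zfp341 and Zfp638, where negative is upstream. The region near Hnrnpf was itself counted at a gene end, that of another gene.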
